A study of Mus musculus with 11 samples.

Results

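The 10 genes described here are leukocyte integrins and pan-leukocyte genes, measured as mRNA in the tibialis anterior (TA) muscle of C57, *mdx* and treated *mdx* mice. They were chosen by name from what the proteins are known for, with earlier results of these data known. Each was found as the probe set whose gene symbol equals that name. Every member has 1 probe set, so the genes are 10 of the 21759 gene symbols and 10 of the 28350 probe sets in the deposited table. They comprise Itgb2 with its partners Itgal, Itgam and Itgax, the integrin chains Itga4 and Itgb7, and Ptprc, Coro1a, Cd53 and Cd48.

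RNA was extracted from mid-belly sections of whole TA and hybridized to Affymetrix Mouse Gene ST arrays, with an array for each of 11 male mice of the C57/B10 background. The groups were 3 untreated wild-type mice (C57), 4 untreated *mdx* mice and 4 *mdx* mice given Pip6e-PMO, all 14 weeks old. The *mdx* mice lack dystrophin through a premature stop codon in the Dmd gene. The treated mice carry the same mutation and had received 1 injection of Pip6e-PMO, a morpholino oligonucleotide joined to a cell-penetrating peptide, which makes the splicing machinery skip the mutated exon, into a tail vein at 12.5 mg/kg when 12 weeks old.

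Integrins are heterodimers of an alpha and a beta chain that join a cell to its neighbours and to the matrix. On leukocytes the beta 2 chain pairs with alpha L to form LFA-1, with alpha M to form Mac-1, the complement receptor CR3, and with alpha X, CD11c, to form CR4. The alpha 4 chain pairs with beta 1 or beta 7 and binds VCAM-1, fibronectin or the gut addressin MAdCAM-1. In dystrophic muscle, damaged fibres draw in leukocytes, most of them macrophages, by way of these receptors.

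The PU box, GAGGAA, is the core to which the myeloid and lymphoid factor PU.1 (gene Spi1) binds, and it was looked for on both strands of the promoters because several of these genes are textbook PU.1 targets. The motif was chosen with these promoters in view. Promoters of RefSeq, build GRCm38.p6, run from 250 bases before to 50 bases from the start of a gene, and were at hand for 8 of the 10 genes, with Itgb2 and Itgal missing. The motif stood in the promoter of 4 of the 8 (Itgam, Itgb7, Ptprc and Cd53), against 31.3% of 27025 genes and 28.3% of 32851 promoters. The 60 bases around the match nearest to the start are shown for the 4 genes, 5′ to 3′ on the strand of the gene, with each match in capitals; TTCCTC is the same motif read on the opposite strand.
Itgam, chr7:128062598-128062657, plus strand: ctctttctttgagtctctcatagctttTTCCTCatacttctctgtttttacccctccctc
Itgb7, chr15:102231916-102231975, minus strand: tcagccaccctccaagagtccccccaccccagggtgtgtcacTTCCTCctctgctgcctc
Ptprc, chr1:138175431-138175490, minus strand: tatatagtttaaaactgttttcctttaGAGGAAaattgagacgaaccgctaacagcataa
Cd53, chr3:106790130-106790189, minus strand: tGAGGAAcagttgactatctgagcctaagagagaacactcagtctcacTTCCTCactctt
Of the 4 genes with a match, Itgam, Ptprc and Cd53 were called higher in *mdx* muscle and Itgb7 was not called, and Itgax and Coro1a, without a match in this window, were called higher too. A match in these letters is a description of the sequence and does not show that the factor was bound.

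The deposited intensities were taken to log2, and signals and differences between means are on that scale. The median intensity per array was 27.5 to 28.6, and the number of arrays limits the precision. The 14494 probe sets whose mean signal reached 30 (4.91 on the log2 scale) in 1 group or more were tested. Differences were tested with limma on the 3 groups together, and a gene was called where its p, adjusted by Benjamini-Hochberg over the 14494, was under 0.05, with no minimum fold. Dmd itself measured 5.87, 5.83 and 5.77 in the C57 mice, 5.82, 5.36, 5.33 and 4.6 in the *mdx* mice and 6.34, 5.51, 5.68 and 5.68 in the treated mice, and was called in neither *mdx* against C57 (adjusted p = 0.198) nor treated against *mdx* (adjusted p = 0.142). The 6 muscle fibre markers, such as Ckm and Ttn, summed to between 39258 and 42500 on the linear scale in all 11 mice. Treated mouse 2 stood apart from the other treated mice: it was the highest of the 4 in 9 of the 10 genes, against 29.8% of all probe sets and 61.6% of the probe sets called higher in *mdx* against C57. Where a call or value of the members moved by over 1.5 times without it, that value is given too.

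**Figure D1:**
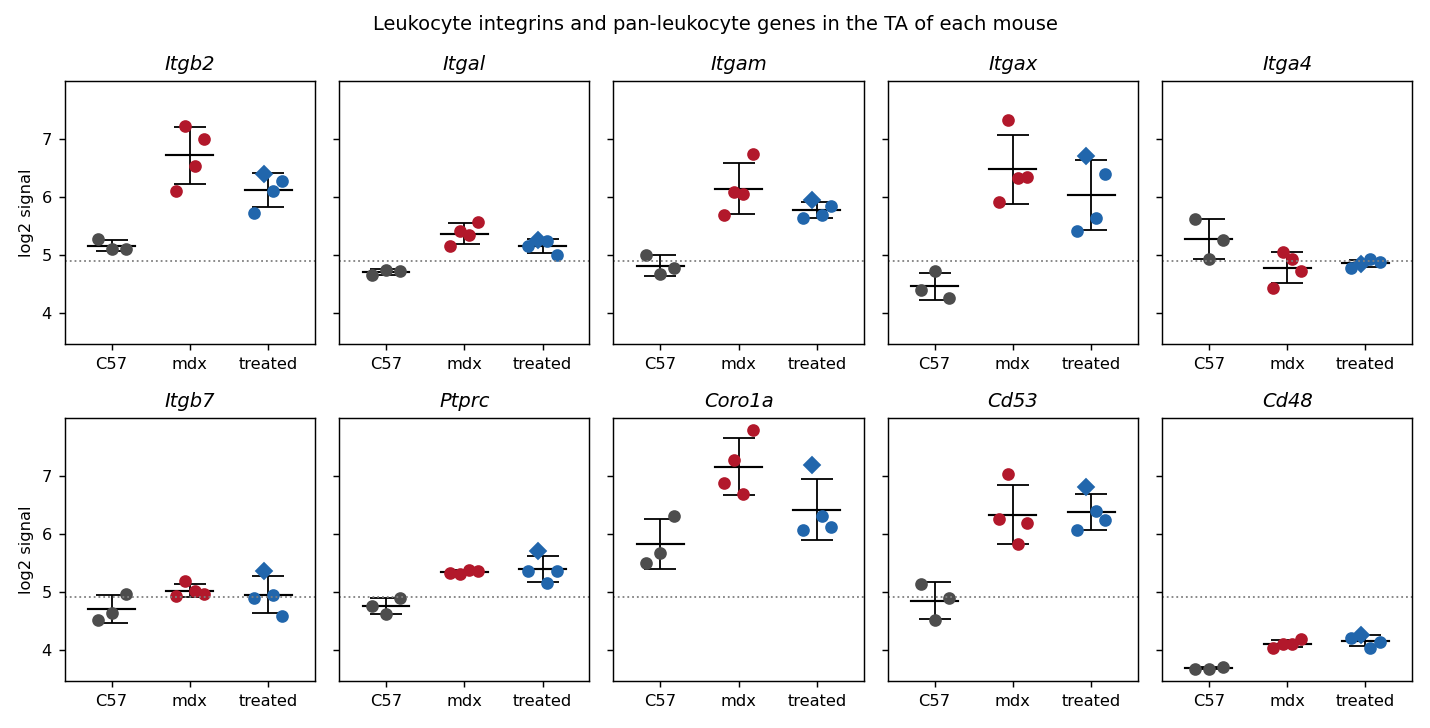
Log2 signal of each of the 10 genes (vertical axis) in the TA of each mouse, by group (horizontal axis). Points are mice, the diamond is treated mouse 2, long lines are group means and error bars are SDs (n = 3 C57, 4 mdx and 4 treated mice); the dotted line is the minimum signal of 30. The mdx mice lie above every C57 mouse in 8 of the 10 panels, and Cd48 lies under the dotted line in all groups.

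In *mdx* against C57 muscle the beta 2 chain, each of its 3 alpha chains, and Ptprc, Coro1a and Cd53 were called higher, by 1.5-fold (Ptprc) to 4.04-fold (Itgax). No member was called lower, as 4.96% of all probe sets tested were. The genes called higher were 7 of the 9 tested, against a share of 7.06% called higher among all probe sets tested. As the members were chosen with earlier results of these data known, such counts describe them and do not test them as a set. The methods' t-test kept 2 of the 7, Itgal and Ptprc, after Benjamini-Hochberg adjustment, with adjusted p values of 0.051 (Itgax) to 0.103 (Coro1a) for the others. Before adjustment that test gave all 7 a p under 0.05, the criterion for differential expression in the paper's supplementary methods. It did so for 12.9% of all probe sets tested on the higher side. For its clustering of mRNAs the paper used a stricter limit on p and a change of at least 1.5-fold. Coro1a, with an unadjusted p of 0.0135 in that test, was the only one of the 7 to miss the stricter limit. The minimum signal favours genes that are higher in *mdx* muscle. Itgal, Itgam, Itgax, Itgb7, Ptprc and Cd53 reached it in *mdx* and treated muscle but not in C57 muscle. They thus entered the test through the groups in which they were high. Over all probe sets with no minimum signal, 8 of the 10 genes were called higher (the same 7 and Cd48) against 3.57% of all. All 4 *mdx* mice lay above all 3 C57 mice in 8 of the 10 genes, as they did in 8.79% of all probe sets. The median difference of the 10 genes was 0.99, and that of all probe sets tested was -0.01. In RNA from whole muscle, more leukocytes and more RNA of a gene per leukocyte cannot be told apart.

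**Figure D2:**
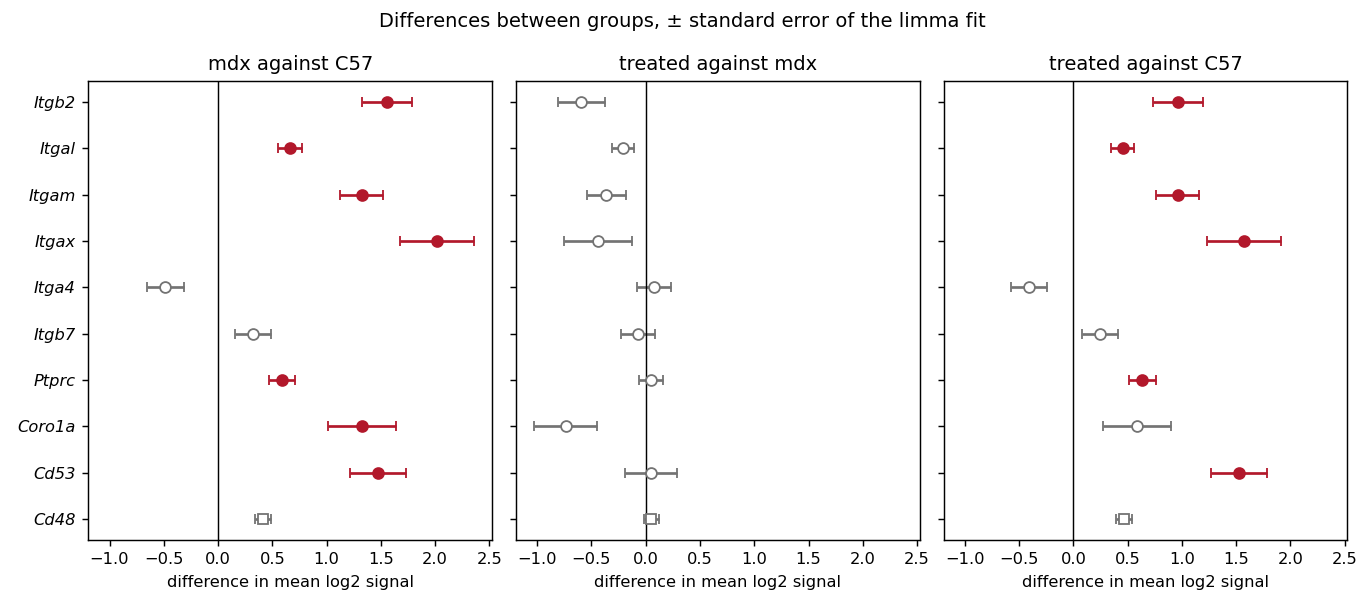
Difference between group means in log2 signal (horizontal axes) for each gene (rows) in the 3 comparisons, with the standard error of the limma fit as bars. Filled red circles were called at an adjusted p under 0.05, open circles were tested and not called, and the open square is Cd48, which was below the minimum signal and has the standard error of the fit without one; 7, 0 and 6 genes were called in the panels from left to right.

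Itgb2 (probe set 10364262, chromosome 10, 76993093 to 77028419, plus strand, in the positions of the deposited table, which names no build) encodes the beta 2 chain, CD18, without which the alpha L, alpha M and alpha X chains do not reach the cell surface. It measured 5.27, 5.11 and 5.10 in the C57 mice, 6.11, 7.22, 6.54 and 6.99 in the *mdx* mice, and 5.72, 6.40, 6.10 and 6.27 in the treated mice. Both *mdx* and treated mice lay above every C57 mouse, and the treated mice overlapped with *mdx* mouse 1, while the other 3 *mdx* mice were above every treated mouse. The mean was 5.16 ± 0.10 (SD, n = 3) in C57 and 6.72 ± 0.49 (SD, n = 4) in *mdx*, a difference of 1.56 (standard error 0.23, adjusted p = 0.00125 in limma) or 2.94-fold.

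Itgal (probe set 10557591, chromosome 7, 134439924 to 134477242, plus strand) encodes alpha L, the LFA-1 chain carried by nearly every leukocyte. Its signal was 4.65, 4.75 and 4.73 in C57, 5.15, 5.42, 5.34 and 5.57 in *mdx*, and 5.15, 5.26, 5.24 and 5.0 in treated mice. The C57 mice were the lowest with no overlap, and 3 of the 4 *mdx* mice were above every treated mouse. The difference of *mdx* from C57 was 0.66 (standard error 0.11, adjusted p = 0.00245 in limma), the smallest of the 4 differences in the beta 2 family.

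Itgam and Itgax are neighbours, with 2445 bases between their probe sets. Itgam (probe set 10557862, chromosome 7, 135206193 to 135270630, plus strand) encodes alpha M, CD11b, a chain of macrophages, monocytes and neutrophils. It measured 5.01, 4.67 and 4.78 in C57, 5.69, 6.09, 6.05 and 6.74 in *mdx*, and 5.64, 5.95, 5.69 and 5.84 in treated mice. All *mdx* and treated mice were above the C57 mice, and the treated mice were close together (SD 0.14, against 0.44 in *mdx*). Its *mdx* mean exceeded the C57 mean by 1.32 (standard error 0.20, adjusted p = 0.00124 in limma).

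Itgax (probe set 10557895, chromosome 7, 135273076 to 135294171, plus strand) encodes alpha X, CD11c, known from dendritic cells and also found on macrophages of injured tissue. Its signal was 4.40, 4.72 and 4.26 in C57, 5.92, 7.32, 6.32 and 6.34 in *mdx*, and 5.41, 6.70, 5.64 and 6.39 in treated mice. It spread widely in both dystrophic groups (SD 0.60 and 0.61), led by *mdx* mouse 2 and treated mouse 2, without reaching down to a C57 mouse. The difference of *mdx* from C57, 2.02 (standard error 0.34, adjusted p = 0.00262 in limma), was the largest of the 10.

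With the Itgb2 signal of each mouse subtracted, Itgal was lower in *mdx* than in C57 by a mean of 0.89 with no overlap between the groups, whereas Itgam (-0.23) and Itgax (0.46) overlapped. These differences share the Itgb2 value of each mouse and are given with no test.

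Neither the alpha 4 nor the beta 7 chain was called. Itga4 (probe set 10473125, chromosome 2, 79095583 to 79173271, plus strand) encodes the alpha chain of VLA-4 and of the gut-homing integrin. It measured 5.62, 4.93 and 5.26 in C57, 4.44, 5.05, 4.93 and 4.72 in *mdx*, and 4.78, 4.85, 4.93 and 4.88 in treated mice. The C57 mice tended to the upper end but overlapped with the *mdx* mice, and this was the only member with a lower mean in *mdx*, by -0.49 (standard error 0.17, adjusted p = 0.0841 in limma). Single C57 mice decided this value, which was -0.66 without C57 mouse 2 (adjusted p = 0.0392 in limma) and -0.31 without C57 mouse 1 (adjusted p = 0.295). Its probe set overlaps that of Cerkl on the other strand, which had means of 3.73, 3.65 and 3.81 in the 3 groups.

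Itgb7 (probe set 10432957, chromosome 15, 102046426 to 102062366, minus strand) encodes the beta chain of the gut-homing and epithelium-binding integrins of lymphocytes. It measured 4.51, 4.63 and 4.97 in C57, 4.92, 5.19, 5.01 and 4.97 in *mdx*, and 4.90, 5.36, 4.95 and 4.59 in treated mice. The 3 groups overlapped and lay near the minimum signal, and the difference of 0.32 between *mdx* and C57 was not called (standard error 0.17, adjusted p = 0.262 in limma).

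Ptprc (probe set 10358224, chromosome 1, 139959992 to 140071882, minus strand) encodes CD45, the tyrosine phosphatase on the surface of all nucleated blood cells, which activates Src family kinases. It measured 4.76, 4.61 and 4.90 in C57, 5.33, 5.31, 5.38 and 5.36 in *mdx*, and 5.36, 5.70, 5.16 and 5.35 in treated mice. The 4 *mdx* mice were nearly the same (SD 0.03) and well clear of C57, and the treated mice lay around them. The difference of *mdx* from C57 was 0.59 (standard error 0.12, adjusted p = 0.0081 in limma).

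Coro1a (probe set 10568024, chromosome 7, 133843288 to 133848271, minus strand) encodes coronin 1A, an actin-binding protein of leukocytes. Its signal was 5.5, 5.67 and 6.31 in C57, 6.88, 7.26, 6.68 and 7.79 in *mdx*, and 6.06, 7.18, 6.31 and 6.11 in treated mice. The *mdx* mice were above C57, and treated mouse 2 lay within their range, whereas the other 3 treated mice lay within that of C57. The difference of *mdx* from C57 was 1.33 (standard error 0.31, adjusted p = 0.0156 in limma). The call was lost without C57 mouse 1 (adjusted p = 0.0638) or C57 mouse 2 (adjusted p = 0.0715 in limma).

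Cd53 (probe set 10501063, chromosome 3, 106562839 to 106592970, minus strand) encodes a tetraspanin that organizes receptors in the leukocyte membrane. It measured 5.14, 4.52 and 4.89 in C57, 6.26, 7.03, 5.82 and 6.19 in *mdx*, and 6.06, 6.80, 6.39 and 6.24 in treated mice. Treated and *mdx* mice overlapped, and both were clear of C57. The difference of *mdx* from C57 was 1.48 (standard error 0.26, adjusted p = 0.00321 in limma).

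Cd48 (probe set 10351658, chromosome 1, 173612140 to 173635388, plus strand) encodes a glycolipid-anchored ligand of CD2 and CD244. It measured 3.68, 3.68 and 3.71 in C57, 4.03, 4.11, 4.10 and 4.18 in *mdx*, and 4.21, 4.25, 4.04 and 4.13 in treated mice. These values are under the minimum signal in every group, though the C57 mice were the lowest without overlap. It was not among the probe sets tested, and in the limma fit without a minimum signal its difference of 0.42 had an adjusted p of 0.00583.

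In treated against *mdx* muscle none of the 9 genes tested was called in limma, where 3.88% of all probe sets tested were called lower and 11.1% were called in either direction. The means of Itgb2, Itgal, Itgam, Itgax, Coro1a and Itgb7 were below those of *mdx*, and those of Itga4, Ptprc, Cd53 and Cd48 were above by 0.05 to 0.08. Itgb2 and Coro1a had an unadjusted p under 0.05 in limma, 2 genes of 9, where 13.0% of all probe sets tested had one on the lower side. The methods' t-test also called 0 members after adjustment, and 0 at an unadjusted p under 0.05. In no gene did the treated mice separate from the *mdx* mice, as 6.51% of all probe sets did on the lower side. The median difference of the 10 genes was -0.14, against 0.02 for all probe sets tested.

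Itgb2 differed by -0.59 between treated and *mdx* mice (standard error 0.22, adjusted p = 0.0873 in limma) and Coro1a by -0.74 (standard error 0.29, adjusted p = 0.108). Treated mouse 2 was the highest treated mouse in both genes, so leaving it out lowers their treated means. Without treated mouse 2 both were called lower, Itgb2 by -0.69 (adjusted p = 0.0432 in limma) and Coro1a by -0.99 (adjusted p = 0.0156). In that fit 1745 of 14535 probe sets tested were called lower, against 563 of 14494 with all mice. Itgb2 was also called without *mdx* mouse 1, at -0.79 (adjusted p = 0.0297 in limma), where 387 of 14502 probe sets were called lower. The other alpha chains had smaller differences, -0.21 for Itgal, -0.36 for Itgam and -0.44 for Itgax, with adjusted p values of 0.186, 0.196 and 0.363 in limma, and were not called without treated mouse 2 either. Single mice moved these values: Itgax was -0.66 without treated mouse 2, -0.23 without treated mouse 1 and -0.16 without *mdx* mouse 2, and Itgam was -0.16 without *mdx* mouse 4. Ptprc and Cd53 each differed by 0.05 (adjusted p = 0.81 and 0.912 in limma), and their differences were -0.06 and -0.09 without treated mouse 2.

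Restoration is how far the treated mean lay from the *mdx* mean towards the C57 mean, with the C57 mean at 100%. As the *mdx* mice enter both differences, it is given as a description with no test. It was 55.6% for Coro1a, 38.1% for Itgb2, 31.4% for Itgal, 27.4% for Itgam, 21.8% for Itgax, -3.22% for Cd53 and -8.07% for Ptprc. The median of these 7 genes by mouse was 38.0% in treated mouse 1, -2.07% in treated mouse 2, 34.2% in treated mouse 3 and 22.9% in treated mouse 4. For Ptprc the values were -2.55%, -60.3%, 31.4% and -0.85% in treated mice 1 to 4, the widest range of the 7, and for Coro1a they were 82.4%, -2.07%, 63.5% and 78.6%. For Cd53 the values were 18%, -32.2%, -4.41% and 5.76%, with treated mouse 2 above the *mdx* mean.

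**Figure D3:**
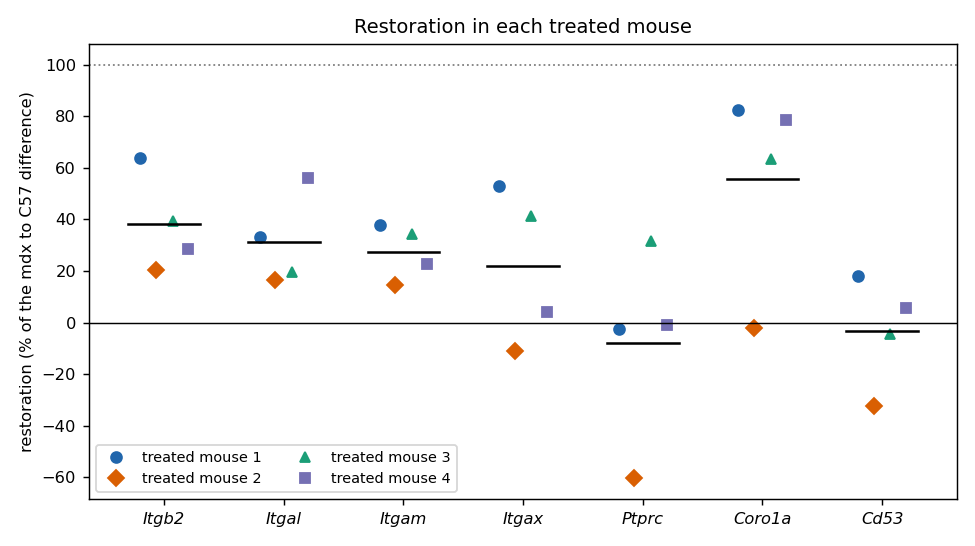
Restoration (vertical axis, percent of the way from the mdx mean to the C57 mean) of the 7 genes called higher in mdx muscle (horizontal axis), in each treated mouse. Symbols are the 4 treated mice and lines are the values of the 4 together; 0 is the mdx mean and the dotted line at 100 the C57 mean. Treated mouse 2 is the lowest in every gene, and Coro1a has the highest value of the 4 together (55.6%).

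Treated muscle was above C57 muscle in 6 of the 9 genes tested, Itgb2, Itgal, Itgam, Itgax, Ptprc and Cd53, where 15.6% of all probe sets tested were called higher. With no minimum signal it was 7 of 10, with Cd48 added, against 7.53% of all probe sets. All treated mice lay above all C57 mice in 7 of the 10 genes, as in 10.7% of all probe sets. Cd53 differed by 1.52 (adjusted p = 0.00218 in limma), Itgax by 1.58 (adjusted p = 0.00736) and Itgb2 by 0.96 (adjusted p = 0.0124). With the methods' t-test Itgax (adjusted p = 0.067) and Ptprc (adjusted p = 0.0653) were not called. Coro1a, at 0.59, was not called (adjusted p = 0.178 in limma), and its difference was 0.33 without treated mouse 2 (adjusted p = 0.344). Without that mouse Itgb7 went from 0.25 to 0.11, also not called, and the 6 genes called were still called, with differences of 0.42 (Itgal) to 1.38 (Cd53). These differences share the C57 mice with the comparison of *mdx* against C57.

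CD45 is carried by leukocytes at large, so the other members were also compared as a ratio to Ptprc in the same mouse. The C57 means of Ptprc (27.1 on the linear scale), Itgam (28.4), Itgax (22.2) and Cd53 (29.3) lay under the minimum signal of 30, where differences are compressed, so the sizes below hold for these signals only and the part of that compression was not tested. In *mdx* against C57 muscle the difference of Itgb2 exceeded that of Ptprc by 0.97, that of Itgam by 0.73, that of Itgax by 1.43 and that of Cd53 by 0.89, whereas that of Itga4 was lower by 1.07 (-1.07). Because one gene is subtracted everywhere, limma's variance shared across probe sets is too certain here, so the p values given are those from each probe set's own variance, a test added after the data were seen. They were 0.0169 for Itgb2, 0.0214 for Itgam, 0.0146 for Itgax, 0.0284 for Cd53 and 0.00401 for Itga4, adjusted over all probe sets tested. Of these probe sets, 1.55% were called higher and 63.8% lower by this test, the latter because most genes did not rise with Ptprc, so that the call of Itga4 is the common one. Coro1a, with a ratio higher by 0.74, was called with the shared variance (adjusted p = 0.0202 in limma, where 1.81% of all were called higher) and not with its own (adjusted p = 0.0672). Itgal (0.07) and Itgb7 (-0.27) were called by neither.

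In treated against *mdx* muscle no ratio to Ptprc was called with the shared or the own variance in limma's fit, and 0.172% of all probe sets tested were called lower with the own variance. At an unadjusted p under 0.05 there were 3 with the shared variance (Itgb2, Itgam and Coro1a) and 2 with the own variance (Itgb2 and Coro1a). All were lower, as were 12.0% of all probe sets tested with the shared variance and 12.7% with the own variance. The ratio of Coro1a was lower by -0.79 (adjusted p = 0.222 with its own variance, 0.103 with the shared variance in limma). That of Itgb2 was lower by -0.64 (adjusted p = 0.247 with its own variance, 0.13 with the shared variance in limma). In treated against C57 muscle the ratio of Cd53 was higher by 0.89 (adjusted p = 0.0279 with its own variance, by which 0.931% of all were called higher), and those of Itga4 (-1.05, adjusted p = 0.00317) and Itgb7 (-0.39, adjusted p = 0.0433) were lower, as 61.3% of all were. Itgax had a ratio higher by 0.94, called with the shared variance (adjusted p = 0.0146 in limma) and not with its own (adjusted p = 0.0651). The ratios of Itgb2 (0.33) and Itgam (0.32) were not called, and without treated mouse 2 the ratio of Itga4 was the 1 still called with its own variance.

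**Figure D4:**
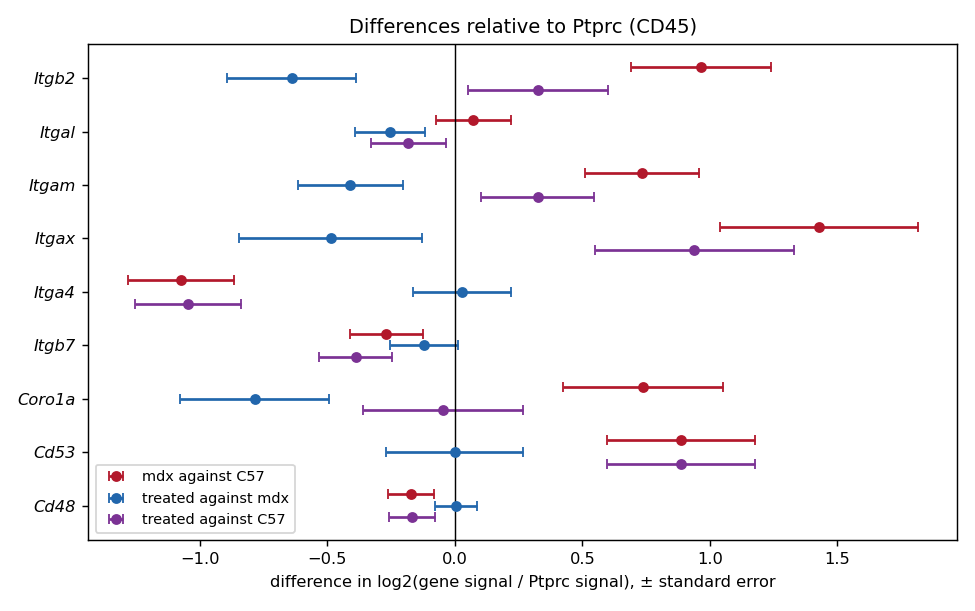
Difference in the log2 ratio of each gene to Ptprc in the same mouse (horizontal axis) for the other 9 genes (rows), with colours for the 3 comparisons. Bars are standard errors from each probe set's own variance, over all probe sets with no minimum signal. Itgb2, Itgam, Itgax, Coro1a and Cd53 lie to the right of 0 and Itga4 to the left in mdx against C57.

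Among 11842 tested genes, those whose profile over the 11 mice was most like that of Itgb2 were Myo1f, Orai2, Dpep2, Anpep and Ptafr. Likeness was measured as the root mean square difference of log2 profiles, each centred on its mean, and it was 0.18 for Myo1f, a class I myosin of leukocytes, and 0.21 to 0.22 for the other 4. Itgam was the closest member at place 13 (0.25) and Itgax stood at place 140 (0.37). The genes closest to Ptprc were Sema4c (0.09), Zfp36l1 (0.10), Wdr13, Usp20 and Srebf2, none of them a leukocyte marker, and the closest member was Itgal at place 274 (0.20). Ptprc lay near the minimum signal with a small range, where many genes with a small step come close.

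Genes that act with these receptors were read from lists of known members, also chosen with earlier results of these data known. The counts that follow stand against the shares of all probe sets tested, which were 7.06% higher and 4.96% lower in *mdx* against C57, and 7.26% higher and 3.88% lower in treated against *mdx*. Of 9 tested genes of other pan-leukocyte genes, 7 were called higher in *mdx* against C57 muscle and 0 lower, with a median difference of 0.85. Cd52, a small glycoprotein of lymphocytes and macrophages, rose by 1.94 (adjusted p = 0.0013 in limma), and Ptpn7 had the smallest difference, 0.53 (adjusted p = 0.0627). In treated against *mdx* muscle 3 of the 9 were called lower, led by Fcer1g, the signalling chain of Fc receptors (-1.05, adjusted p = 0.0211 in limma). The count was 6 without treated mouse 2 and 1, Fcer1g, without a minimum signal. Of all probe sets, 1745 of 14535 and 556 of 28350 were called lower in those fits.

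Of 11 tested genes of the leukocyte actin and Rac machinery, 9 were called higher in *mdx* and 0 lower. Rac2, the Rac GTPase of blood cells, rose by 1.45 (adjusted p = 4e-04 in limma) and was lower in treated than in *mdx* muscle by -0.98 (adjusted p = 0.00958). Cyfip1, a widely expressed subunit of the WAVE complex, had the smallest difference (0.15) and was called higher in treated muscle by 0.66 (adjusted p = 0.0289 in limma). Of the 6 other coronins none was called in either of these comparisons. In limma 4 had an unadjusted p under 0.05 in *mdx* against C57, as 13.5% of all probe sets tested had higher and 11.4% lower. In treated against *mdx* 2 had one, as 18.5% of all had higher and 13.0% lower. Coro2a had the largest difference between *mdx* and C57, 0.51 (adjusted p = 0.0523 in limma).

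Of 13 tested genes of signalling below leukocyte integrins and CD45, 7 were called higher in *mdx* and 0 lower. Tyrobp, the adaptor DAP12 of myeloid cells, rose by 1.86 (adjusted p = 0.00101 in limma) and was 1 of 3 called lower in treated muscle (-1.12, adjusted p = 0.022). Ptprcap, which binds CD45, had a difference of -0.09 (adjusted p = 0.751 in limma). Of 12 tested genes of integrin activation, 3 were called higher and 1 lower in *mdx*. Apbb1ip, which encodes RIAM, a link between Rap1 and talin, rose by 0.83 (adjusted p = 0.00201 in limma). Rasgrp2, an activator of Rap1, fell by 0.60 (adjusted p = 0.00193) and was higher in treated than in *mdx* muscle by 0.34 (adjusted p = 0.0355).

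Of 10 tested ligands of these integrins, 3 were called higher in *mdx*: Fn1, fibronectin, by 0.96 (adjusted p = 0.00138 in limma), Icam1, the ligand of LFA-1 and Mac-1, by 0.67 (adjusted p = 0.00669), and Vcam1, the ligand of VLA-4, by 0.60. Icam1 was 1 of 2 called lower in treated muscle, by -0.58 (adjusted p = 0.0204 in limma), which left it at a mean of 5.96, against 5.87 in C57. Madcam1 did not reach the minimum signal in any group. Of 6 tested genes of selectins and rolling, 4 were called higher in *mdx*, led by Selplg, the P-selectin ligand of leukocytes (1.30, adjusted p = 6.5e-04 in limma), which was also called lower in treated muscle (-0.79, adjusted p = 0.0176).

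Among other integrin chains, 2 of 7 tested were called higher in *mdx*, Itgb1 by 0.63 (adjusted p = 0.0197 in limma) and Itgav by 0.56 (adjusted p = 0.0356), the latter not called without a minimum signal (adjusted p = 0.0512). Itgb1, the beta 1 chain that can pair with alpha 4, was higher still in treated muscle, by 0.58 over *mdx* (adjusted p = 0.0284 in limma). Itgad, a further partner of beta 2, had a difference of -0.28 between *mdx* and C57 (adjusted p = 0.148 in limma). Of 9 tested tetraspanins other than Cd53, 3 were called higher and 1 lower in *mdx*, with Cd82 at 1.03 (adjusted p = 0.004 in limma) and Tspan4 at -0.69 (adjusted p = 0.0107). In the SLAM family, to which Cd48 belongs, 2 of 10 genes reached the minimum signal and Slamf7 was called higher by 0.87 (adjusted p = 0.00203 in limma).

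The counts for treated against *mdx* muscle depended on treated mouse 2 and on the minimum signal, as did those of all probe sets. Over all probe sets tested, 1745 of 14535 were called lower without treated mouse 2, against 563 of 14494 with it. With no minimum signal 556 of 28350 were called lower. Without treated mouse 2, the number called lower was 4 in place of 2 for the ligands, 2 in place of 1 for the actin and Rac machinery, 4 in place of 3 for signalling, 2 in place of 0 for integrin activation, 6 in place of 1 for the tetraspanins, 1 in place of 0 for the coronins, and 3 in place of 2 for the macrophage and for the dendritic cell markers. Without a minimum signal it was 1 for the ligands, 2 for signalling and 0 for the tetraspanins.

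**Figure D5:**
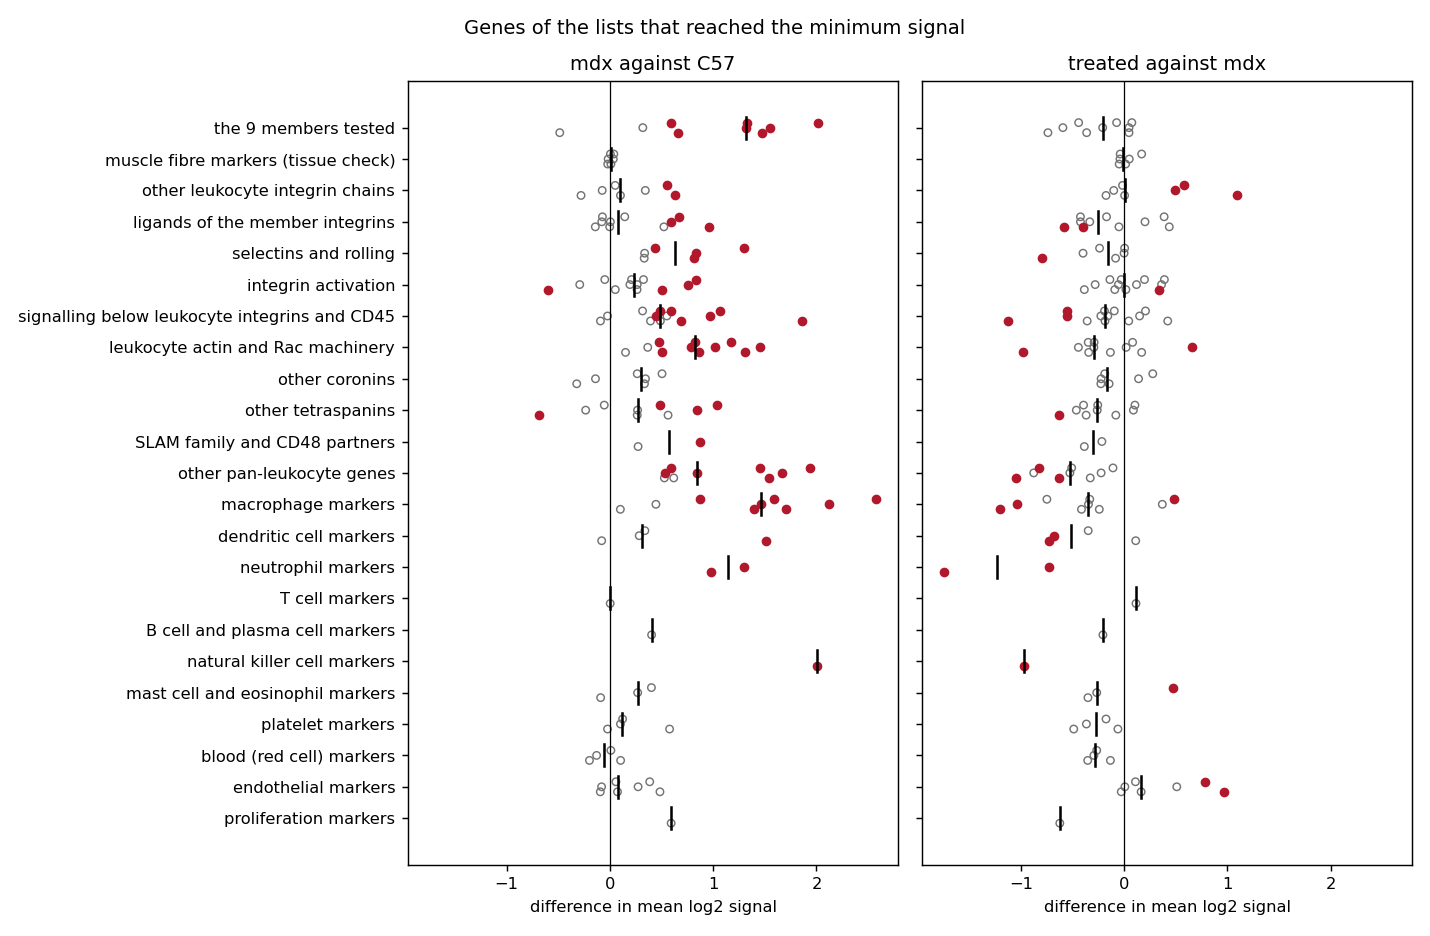
Differences in mean log2 signal (horizontal axes) of every gene of each list (rows) that reached the minimum signal, for mdx against C57 and treated against mdx. Filled red points were called at an adjusted p under 0.05, open points were not, and black lines are medians of the list. Of 9 macrophage markers 7 were called higher in mdx against C57, and of 6 muscle fibre markers none was called in either comparison.

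Most markers of macrophages were higher in *mdx* than in C57 muscle. Of 9 tested, 7 were called higher in *mdx* and 0 lower, with a median difference of 1.46, and the summed linear signal of the 10 in the list lay between 1228 and 1683 in C57 mice, between 3361 and 5279 in *mdx* mice and between 2500 and 3617 in treated mice. Treated mouse 2 had the highest treated sum, 3617. Lgals3, galectin 3, rose by 2.58 (adjusted p = 1.21e-04 in limma) and was lower in treated than in *mdx* muscle by -1.20 (adjusted p = 0.0187), whereas Mertk, a receptor for dying cells, differed by 0.10 between *mdx* and C57 (adjusted p = 0.752). Cd163, a marker of resident macrophages, did not reach the minimum signal, and without one it was called lower in *mdx* by -0.30 (adjusted p = 0.044 in limma). In treated against *mdx* muscle 2 macrophage markers, Lgals3 and Cd68, were called lower, and 1, Mrc1, was called higher. That call of Mrc1 was lost without a minimum signal. The part of macrophage number in the values of the members was not tested.

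Markers of other leukocytes were mostly too dim to test. Of 10 neutrophil markers 2 were tested and both were called higher in *mdx* and lower in treated muscle, Csf3r by 0.98 and then -0.73, and Retnlg by 1.30 and then -1.74, while S100a8, S100a9, Ly6g and Mpo did not reach the minimum signal. The neutrophil sum ranged over 113 to 124 for C57, 141 to 185 for *mdx* and 104 to 115 for treated mice. Of 11 T cell markers 1, Cd247, was tested, with a difference of 0.00 (adjusted p = 0.995 in limma), and Cd3e, Cd4 and Cd8a did not reach the minimum signal. The T cell sum was 171 to 188, 203 to 213 and 185 to 190. Most genes in the neutrophil and T cell sums lay under the minimum signal in all groups. Of 8 dendritic cell markers 4 were tested and 1, H2-Aa, an MHC class II chain, was called higher, by 1.51 (adjusted p = 5.06e-04 in limma). The median difference of the 4 was 0.31. The sums, which include H2-Aa, were 978 to 1208, 2334 to 2736 and 1251 to 2223, and the part of H2-Aa in them was not tested. Flt3, Xcr1 and Clec9a of the same list did not reach the minimum signal. The part of these cells in the values of the members was not tested.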

How the data were processed

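The authors made the values from the arrays with Affymetrix Expression Console and RMA (tools per the submitters' processing notes and the methods) and deposited linear intensities for 28350 probe sets and 11 mice; versions and the build of the positions are not given in the sources used here. Samples were grouped by label, a separate mouse each. Here the intensities were taken to log2, 14494 probe sets that averaged 30 or more in 1 group or more were kept, and limma 3.58.1 in R 4.3.3 fitted 3 group means with two-sided moderated tests, tested beforehand on simulated data. Calls used a Benjamini-Hochberg adjusted p under 0.05. Named genes were the members, the tested gene of each list with the largest and the most negative difference between *mdx* and C57, the largest called fall in treated mice, and the 5 nearest genes to Itgb2 and Ptprc. Vcam1, Itgav, Mrc1, Cd68, Pecam1, Tek and Kit were named after their values were seen. The members and lists were chosen with earlier results of these data known. The alternatives were the methods' t-test, the 2 groups alone, other priors, minimum signals, scalings and weights, a replicate block, averaging of probe sets by gene, and leaving out each mouse. Own-variance tests, and counts of the lists without treated mouse 2 or without a minimum signal, were added after the data were seen. Tables and plots were made with Python 3.11.15, pandas 2.3.3, NumPy 2.4.6 and matplotlib 3.10.9.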

Additional observations from a re-analysis of the deposited data

How the results depend on the processing

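The 7 members called higher in *mdx* against C57 were 2 with the methods' t-test after adjustment (Itgal and Ptprc), 2 with a minimum signal of 100 (Itgb2 and Coro1a, the only members then tested), 6 with each probe set's own variance, and 6 to 7 with each mouse left out. The count of 0 in treated against *mdx* became 2 with array weights (Itgb2 and Coro1a, both lower) and was 0 to 2 with each mouse left out. The 6 called in treated against C57 lost Itgax and Ptprc with the methods' t-test after adjustment. They became 1 with a minimum signal of 100, which left 2 members to test. With each mouse left out the count was 6 to 7. It was 7 without C57 mouse 2, where Itga4 was called lower beside the 6 higher (-0.58, adjusted p = 0.0427 in limma). Relative to Ptprc, the 6 called in *mdx* against C57 became 2 with a minimum signal of 100 and 5 to 6 with each mouse left out. The 0 in treated against *mdx* was 0 to 1, with Coro1a called without treated mouse 2, and the 4 in treated against C57 became 0 with a minimum signal of 100, 2 to 4 with each mouse left out (2 without C57 mouse 3) and 1 without treated mouse 2 with own variances. Median restoration was 23.5 to 34.8% with each mouse left out and 28.7% with arrays centred on their medians.

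Signs turned only in small differences of treated against *mdx* that were not called. With each mouse left out these were -0.04 to 0.163 for Itga4 (negative without *mdx* mouse 1), -0.209 to 0.0475 for Itgb7 (positive without treated mouse 4), -0.055 to 0.125 for Ptprc (negative without treated mouse 2) and -0.12 to 0.283 for Cd53 (negative without *mdx* mouse 3 or, at -0.095, treated mouse 2). With quantile normalization repeated Ptprc gave -0.0095 and Cd53 -0.0443, and with array weights Ptprc gave -0.0889. Itgb7 was called in *mdx* against C57 with array weights (0.38, adjusted p = 0.0435 in limma). Apart from alternatives that test fewer probe sets, the cause of these changes was not tested.

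The replicate numbers do not pair the mice, since the deviations of same-numbered mice correlated at -0.30 to 0.15 and 1 of 10 pairs was over 0.1. With the replicate number as a block, 7, 0 and 6 members were called in the 3 comparisons, and 6, 0 and 3 relative to Ptprc. Over all probe sets tested, the number called in treated against *mdx* was 1615, and it was 88 with the methods' t-test, 730 with the 2 groups alone, 498 with the block, 590 with own variances, 4614 with array weights and 4123 without treated mouse 2 (296 to 4123 with each mouse left out). In *mdx* against C57 the 1742 were 791 with the t-test, 1145 with the block, 3379 with array weights and 1006 to 2215 with each mouse left out. In that comparison 1023 probe sets were called higher and 719 lower, and 881 and 892 with arrays centred on their medians.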

Other observations

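Genes of cells other than leukocytes were read from the same arrays. Of 7 endothelial markers tested, 0 were called in *mdx* against C57 muscle by limma, with 0 at an unadjusted p under 0.05, and 2 were called higher in treated than in *mdx* muscle, Pecam1 by 0.78 and Tek, the angiopoietin receptor, by 0.97; it was 3 without treated mouse 2, and 1, Pecam1, without a minimum signal. Of 4 tested platelet markers and 4 tested red cell markers, 0 were called in either comparison, with 0 at an unadjusted p under 0.05 in limma, and 1 platelet marker was called lower in treated muscle without treated mouse 2. Of 3 tested mast cell and eosinophil markers, Kit was called higher in treated than in *mdx* muscle (0.48, adjusted p = 0.0376 in limma). Nkg7, a granule protein of cytotoxic lymphocytes and the 1 natural killer marker of 9 that reached the minimum signal, rose by 2.00 in *mdx* muscle (adjusted p = 0.0013 in limma) and was lower in treated muscle by -0.97 (adjusted p = 0.0456). Cd79b, the 1 tested marker of B cells, had a difference of 0.40 (adjusted p = 0.0591 in limma), and Ube2c, the 1 tested proliferation marker, 0.59 (adjusted p = 0.102). Mrc1, the mannose receptor of resident macrophages, was called higher in treated than in *mdx* muscle by 0.49, whereas Cd68 and Lgals3 were called lower. Without a minimum signal the treated against *mdx* calls of Mrc1 (adjusted p = 0.0505 in limma), Kit (0.0501) and Nkg7 (0.0704) were lost. Over all probe sets tested without treated mouse 2, 2378 of 14535 were called higher and 1745 lower in treated against *mdx* muscle.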
